A study of Drosophila melanogaster with 3 samples.

Results

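The 10 genes described here encode the Myc transcription factor network (Myc, Max and Mnt) and the TOR growth pathway (Tor, raptor, rictor, S6k, Rheb, Tsc1 and gig) of Drosophila melanogaster. They were chosen by name, with no measured value in the rule, but earlier results of these data were known at the time. They are 10 of the 13945 genes annotated as protein-coding on the assembled chromosome arms. All 10 were found in the Ensembl release 115 annotation, with Tor listed there as mTor (FBgn0021796). Around each gene, every peak of chromatin immunoprecipitation and sequencing (ChIP-seq) for the transcription factor CrebB was collected when its summit lay in the gene or within 2000 bp of it. CrebB is the fly homologue of CREB, a cAMP-responsive factor of the basic leucine zipper class.

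Myc pairs with Max to bind E-box DNA (CACGTG) and to raise transcription of genes for ribosome production and growth, while Mnt pairs with Max at the same kind of site and represses. The kinase Tor works in a complex with raptor (TORC1), which drives protein synthesis, and in another with rictor (TORC2), which acts on the kinase Akt. The small GTPase Rheb switches TORC1 on, Tsc1 and gig (the fly TSC2) form the complex that turns Rheb off, and S6k is a kinase that TORC1 activates.

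The material was whole embryos of mixed sex, 0 to 24 hours old, from a transgenic line that stably carries CrebB with green fluorescent protein at its C-terminus. The promoter that drives the fusion is not given in the sources used here. Each list averages over all embryonic cell types and ages. There was 1 group of 3 biological replicates, with no other genotype or treatment, and so no group was compared with another. Each replicate list and the pooled list of all 3 replicates held 30000 peaks. The list past the authors' reproducibility threshold, called optimal below, held 3915 peaks and was the same as the top 3915 ranks of the pooled list by the caller's signal value. That signal value has no stated scale, and it was compared only within a list. Read depth is unknown, as the lists give no read numbers. A description field of the labels speaks of input controls, whereas the antibody, assay and source labels name CrebB ChIP, and it was the antibody label that placed all 3 libraries in the group.

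Optimal CrebB peaks lay in or near most of the 10 genes, though those of rictor and gig were outside the gene, at the starts of neighbours. None of these optimal peaks was in the first 978 ranks by signal value. The highest, at the Max promoter, had rank 1443 and a signal of 252.6. That is above the median of all optimal peaks (217.0), whereas the median of the optimal peaks in the windows was below it (175.0). An optimal peak lay in or within 2000 bp of 7 of the 10 genes (Myc, Max, Mnt, S6k, rictor, Rheb and gig), against 32.7% of all protein-coding genes. At 5 of them (Myc, Max, Mnt, S6k and Rheb) an optimal summit lay within 500 bp of the gene's own transcription start site (TSS), against 18.7% of all protein-coding genes. Tor, raptor and Tsc1 had no optimal peak in their windows. These shares are descriptions of 10 chosen genes, and no test was made of them.

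In all, 14 optimal and 51 pooled peaks fell in the 10 gene windows. The 14 had signals from 152.0 to 252.6 with a median of 175.0, while the 3915 optimal peaks had a median of 217.0 and a highest value of 3466.1. Their ranks ran from 1443 to 3905, and 0 of the 14 were in the first 978 ranks. Of the 14, 5 marked a TSS of the gene itself, and 3 of these were also within 500 bp of another gene's TSS. A further 4 lay within 500 bp of a TSS of a neighbouring gene only, and 5 were intronic and over 500 bp from any protein-coding TSS. At least 1 pooled peak fell in the window of each of the 10 genes (78.8% of all genes), and 8 of 10 had one within 500 bp of their own TSS (56.8%). The pooled list reaches into background, and 27 of the 51 pooled peaks had a q-value under 0.05, against 35.5% of all pooled peaks.

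**Figure D1:**
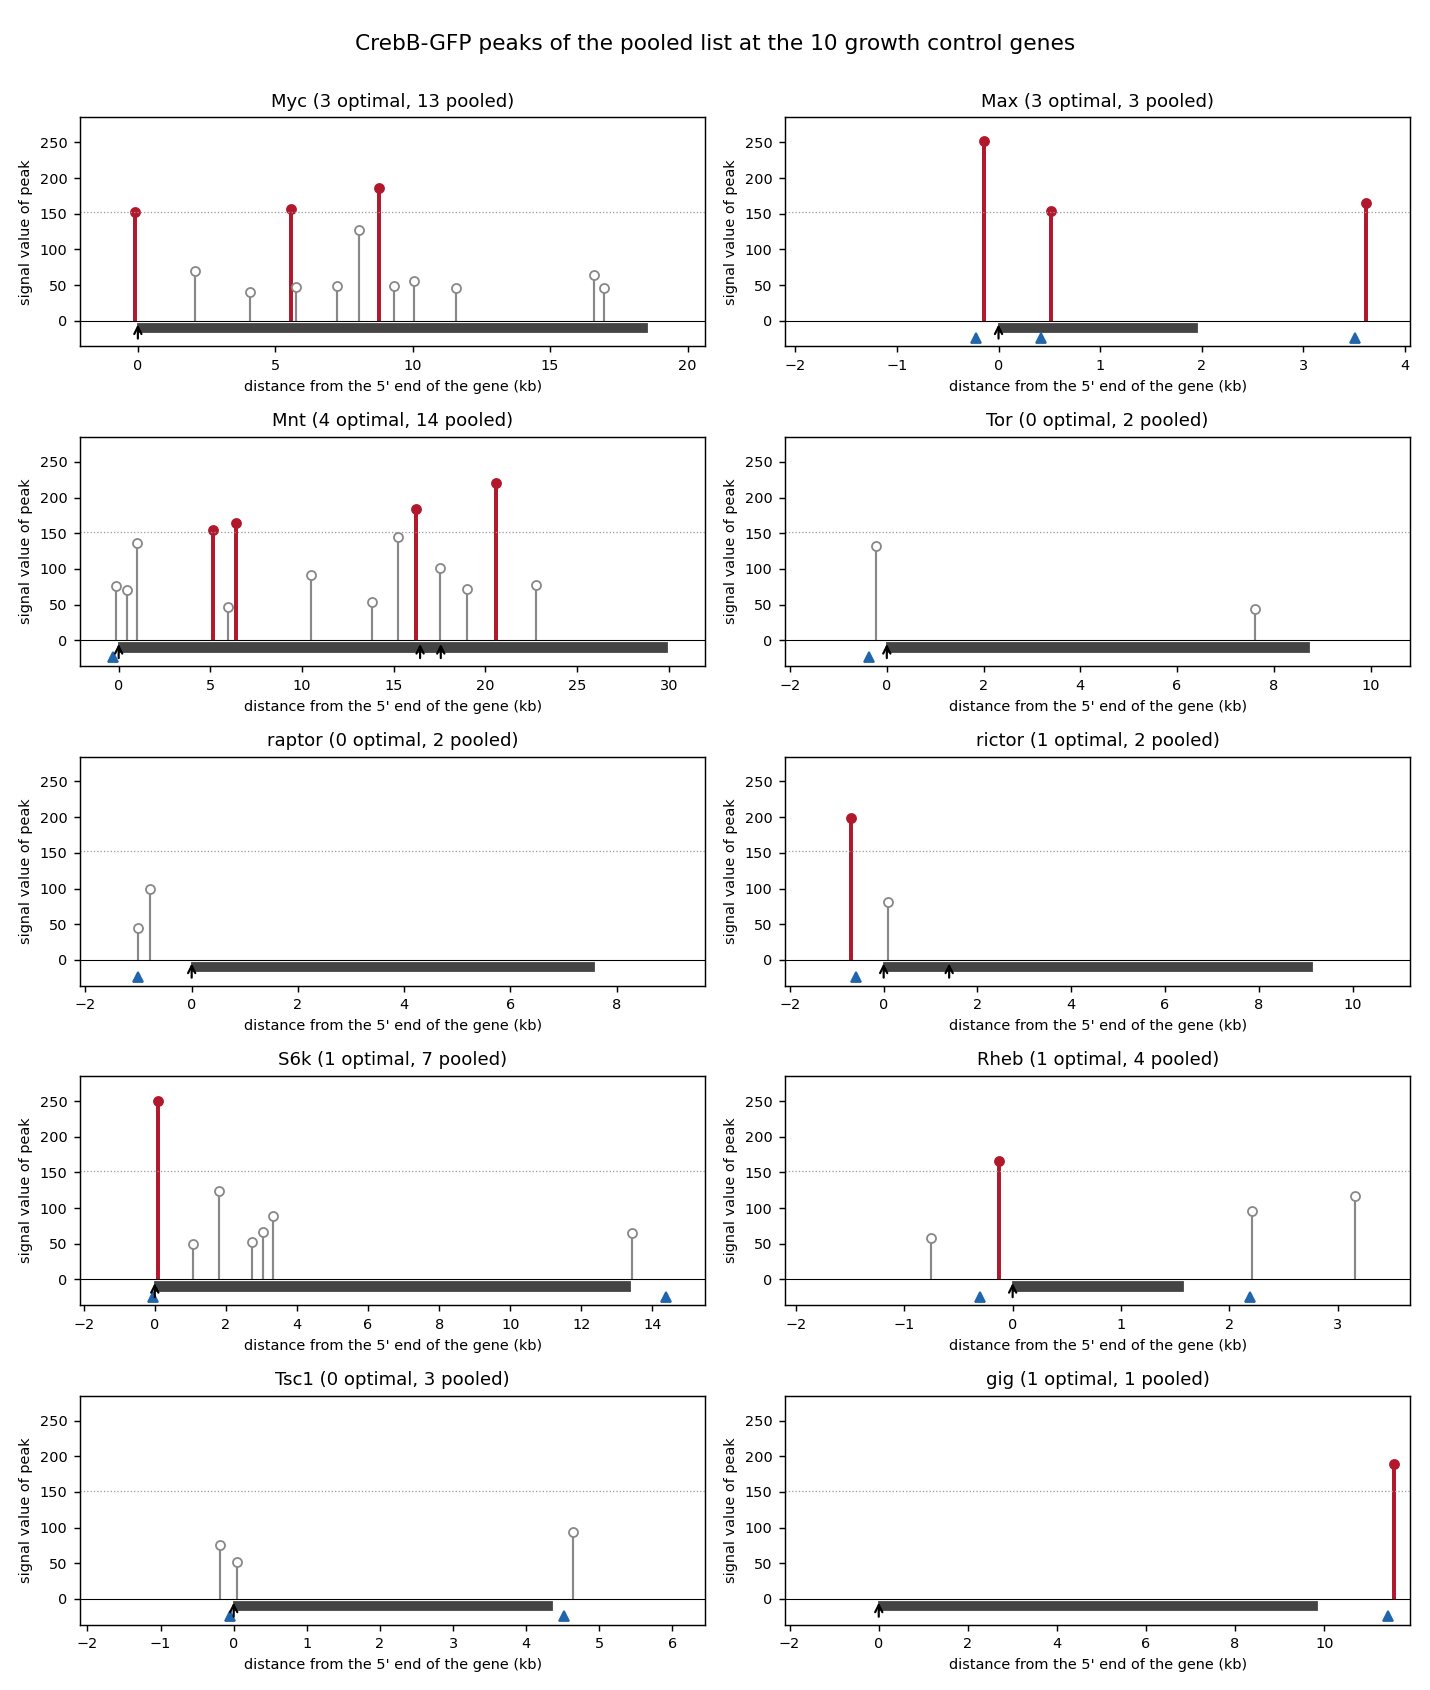
Peaks of the pooled list at each gene, with distance from the 5' end of the gene in kb along the direction of transcription on the x axis and the caller's signal value on the y axis. Filled red stems are optimal peaks, open grey stems are other pooled peaks, the dark bar is the gene, arrows mark its own TSSs, blue triangles mark the nearest TSS of another gene where it lies within 1000 bp of a summit, and the dotted line is the lowest optimal signal (151.9). Myc and Mnt carry intronic peaks besides those at their starts, S6k and Rheb have 1 optimal peak each at the start, and the optimal peaks in the rictor and gig windows lie outside these genes next to blue triangles.

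The sequence under 8 of the peaks is shown because these are the 5 promoter peaks and the intronic peaks of Myc and Mnt described below for their recurrence or their E-box. Each line gives the 201 bp centred on the summit, 5' to 3' on the + strand of the reference (RefSeq Release 6, the dm6 assembly), and Max and S6k are transcribed from the other strand. Capitals mark matches, on either strand, to 6 motifs. These are the cAMP response element TGACGTCA (CRE) and its part TGACG, the DRE TATCGATA, the M1BP site GGTCACACT, the E-box named above and a GAGA factor repeat, GAGAG.
Max promoter peak, chr3L:19264225-19264425: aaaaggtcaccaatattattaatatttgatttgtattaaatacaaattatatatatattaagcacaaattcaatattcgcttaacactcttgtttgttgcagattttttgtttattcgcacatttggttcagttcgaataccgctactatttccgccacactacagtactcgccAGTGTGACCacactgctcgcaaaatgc
S6k promoter peak, chr3L:5810742-5810942: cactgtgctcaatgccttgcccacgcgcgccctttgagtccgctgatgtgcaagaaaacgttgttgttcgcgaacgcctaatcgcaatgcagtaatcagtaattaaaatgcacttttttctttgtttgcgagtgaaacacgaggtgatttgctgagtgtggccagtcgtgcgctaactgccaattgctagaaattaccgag
Mnt promoter peak, chrX:3687914-3688114: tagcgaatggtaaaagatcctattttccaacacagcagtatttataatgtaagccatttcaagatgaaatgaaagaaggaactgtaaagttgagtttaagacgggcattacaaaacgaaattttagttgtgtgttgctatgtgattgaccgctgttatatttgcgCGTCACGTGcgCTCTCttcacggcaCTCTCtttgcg
Rheb promoter peak, chr3R:5568693-5568893: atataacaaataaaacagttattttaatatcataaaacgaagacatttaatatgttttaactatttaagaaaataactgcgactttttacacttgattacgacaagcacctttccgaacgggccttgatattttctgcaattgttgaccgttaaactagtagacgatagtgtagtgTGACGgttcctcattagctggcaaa
Myc promoter peak, chrX:3372955-3373155: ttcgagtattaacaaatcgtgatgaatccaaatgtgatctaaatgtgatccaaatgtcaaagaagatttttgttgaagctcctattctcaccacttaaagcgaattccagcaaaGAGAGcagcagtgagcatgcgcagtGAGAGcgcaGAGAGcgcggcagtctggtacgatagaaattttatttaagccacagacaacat
Mnt intronic peak, chrX:3692258-3692458: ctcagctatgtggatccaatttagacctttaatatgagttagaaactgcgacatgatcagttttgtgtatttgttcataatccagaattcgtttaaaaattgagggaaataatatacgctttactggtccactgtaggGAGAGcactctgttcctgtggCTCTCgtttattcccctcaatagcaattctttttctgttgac
Myc intronic peak of rank 2634, chrX:3381817-3382017: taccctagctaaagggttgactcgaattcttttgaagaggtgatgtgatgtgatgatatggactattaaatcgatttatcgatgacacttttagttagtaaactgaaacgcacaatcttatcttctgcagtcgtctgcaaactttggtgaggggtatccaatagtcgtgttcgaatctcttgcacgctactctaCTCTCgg
Myc intronic peak of rank 3713, chrX:3378625-3378825: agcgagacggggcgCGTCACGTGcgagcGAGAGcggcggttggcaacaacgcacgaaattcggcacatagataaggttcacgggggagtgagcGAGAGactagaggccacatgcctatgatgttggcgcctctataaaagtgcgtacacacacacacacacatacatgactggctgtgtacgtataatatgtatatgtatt

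Max (FBgn0017578, chromosome 3L, 19262232 to 19264184, - strand, dm6) had the strongest promoter peak of the 10 genes. The peak spanned 19264127 to 19264522 with a signal of 252.6 (rank 1443, q = 0.000164), and its summit was 141 bp upstream of the only annotated TSS of Max. It ranked 2531, 1216 and 1482 in replicates 1, 2 and 3, with signals of 74.7, 92.8 and 82.3 in those lists. All 3 replicates thus held it among their first 3915 peaks. The 5' end of Max overlaps a transcription unit on the opposite strand, that of CG42374 and the methyltransferase gene Mettl5, and the summit was also 79 bp upstream of a TSS of these genes. That start is nearer to the summit than the Max TSS, so the peak cannot be assigned to Max alone. A weaker optimal peak in intron 2 of Max (signal 153.9, rank 3817) lay 512 bp downstream of the Max TSS and 94 bp upstream of another TSS of CG42374 and Mettl5. It ranked 5457, 3702 and 5434 in replicates 1, 2 and 3, so only replicate 2 had it among its first 3915 peaks. The third peak of the window, past the 3' end of Max, belonged by position to nes, with its summit 117 bp downstream of the nes TSS (signal 165.6, rank 3357).

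Myc (FBgn0262656, chromosome X, 3373159 to 3391697, + strand) carried 3 optimal peaks, the weakest of them at its promoter. The promoter peak at 3372857 to 3373252 had its summit 104 bp upstream of the only TSS, from which both annotated transcripts start, and a signal of 152.0 at rank 3905 of 3915. It ranked 4375, 3814 and 7922 in replicates 1, 2 and 3, with signals of 57.0, 54.0 and 31.7. Only replicate 2 placed it within its first 3915 peaks. The summits of replicates 1, 2 and 3 were 0, 2 and 46 bp from the pooled one. No other protein-coding gene starts near Myc, and the nearest TSS of one, that of dnc, was 39185 bp from this summit.

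The strongest Myc peak was in intron 2, 8758 bp downstream of the TSS, at 3381719 to 3382114 (signal 186.7, rank 2634). It ranked 3039, 2497 and 3677 in replicates 1, 2 and 3 and was the only peak of the locus that all 3 replicates held within their first 3915. Another peak in intron 2, 5566 bp downstream of the TSS at 3378527 to 3378922 (signal 156.7, rank 3713), ranked 3811, 3464 and 9530. The other 10 pooled peaks of the Myc window had signals from 40.7 to 127.5, and 1 of them had a q-value under 0.05. That peak, 8059 bp downstream of the TSS, ranked 4603, 8228 and 27578 in replicates 1, 2 and 3.

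Mnt (FBgn0023215, chromosome X, 3671801 to 3701672, + strand) had the most peaks, with 4 optimal and 14 pooled, over the longest of the 10 genes (29872 bp). Of its 3 annotated TSSs, the optimal list marked the middle one, from which 5 of 10 transcripts start. The peak at 3687816 to 3688211 had its summit 221 bp upstream of that TSS (signal 184.0, rank 2713), and this position is in intron 2 of the transcript that starts farthest upstream. It ranked 1821 and 1703 in replicates 1 and 2, while replicate 3 had no summit within 100 bp. The nearest replicate 3 summit at that TSS was 85 bp upstream of it and ranked 6244, and the best replicate 3 peak at any Mnt TSS, 77 bp downstream of the most downstream one, ranked 4974. The upstream TSS of Mnt, shared head to head with Parg, had only pooled peaks 156 bp upstream (signal 75.5, q = 0.0764) and 438 bp downstream (70.7, q = 0.109), and the most downstream TSS had 1 with its summit 66 bp upstream (100.9, q = 0.0102).

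The intronic Mnt peak at 3692160 to 3692555, 2995 bp downstream of the most downstream TSS, was the strongest of the locus (signal 220.2, rank 1902). It ranked 2920, 1970 and 1869 in replicates 1, 2 and 3, so its recurrence was tighter than that of the promoter peak. Further intronic peaks lay 5161 bp (signal 155.2, rank 3759) and 6387 bp (164.3, rank 3401) downstream of the upstream TSS. Among the replicates, the first ranked 6741, 3271 and 4623 and the second 3142, 5463 and 1255. The other 10 pooled peaks had signals from 47.4 to 145.5, and 4 of them had a q-value under 0.05. Longer genes held optimal peaks more often, and of 1099 protein-coding genes at least as long as Myc, 17.7% had 3 or more optimal peaks in the same kind of window and 10.4% had 4 or more.

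S6k (FBgn0283472, chromosome 3L, 5797549 to 5810931, - strand) had the strongest promoter peak of the TOR genes. The peak spanned 5810644 to 5811039 with a signal of 249.9 (rank 1480), and its summit lay in the 5' UTR, in exon 1 of both transcripts and 89 bp downstream of their TSS. It ranked 1332, 3862 and 2066 in replicates 1, 2 and 3, with signals of 101.5, 53.6 and 68.6. All 3 replicates held it within their first 3915 peaks, replicate 2 narrowly. The start of kri, on the opposite strand, is 42 bp from that of S6k, so the summit was also 131 bp upstream of kri and the peak cannot be assigned to either gene alone. The other 6 pooled peaks had signals from 49.6 to 124.4. The strongest of these, 1804 bp downstream of the TSS, ranked 6001, 6952 and 6186 in the replicates.

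Rheb (FBgn0041191, chromosome 3R, 5568921 to 5570491, + strand) carried 1 optimal peak, at 5568595 to 5568990, with its summit 128 bp upstream of the TSS of both transcripts (signal 166.0, rank 3339). It ranked 4625, 3635 and 2231 in replicates 1, 2 and 3, with signals of 55.4, 55.3 and 65.8. Replicates 2 and 3 had it within their first 3915 peaks and replicate 1 did not. CG2931 starts 306 bp away on the opposite strand, and the summit was 178 bp upstream of that start. The other 3 pooled peaks were nearer to the TSS of CG2931 (444 bp) or of CRMP (22 and 972 bp).

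The kinase gene Tor and the 2 genes for complex-specific subunits had no optimal peak at their own starts. Tor (chromosome 2L, 13004480 to 13013197, + strand) had a promoter peak below the optimal threshold, at 13004050 to 13004445, with a signal of 132.3 (rank 4898, q = 0.00112). It ranked 9815, 2941 and 5550 in replicates 1, 2 and 3, with signals of 35.7, 61.4 and 39.4, so only replicate 2 had it within its first 3915. Its summit was 232 bp upstream of the Tor TSS and 141 bp upstream of Vha68-1, which encodes a subunit of the vacuolar ATPase. The other pooled peak, in a coding exon of Tor (signal 43.7, q = 0.552), had no summit within 100 bp in any replicate.

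For rictor (FBgn0031006, chromosome X, 19252111 to 19261240, - strand), the optimal peak of the window was placed at its neighbour. That peak, at 19261730 to 19262125 (signal 199.2, rank 2347), had its summit 688 bp upstream of rictor and 108 bp downstream of the TSS of Vav, a guanine nucleotide exchange factor gene. It ranked 1301, 2976 and 9121 in replicates 1, 2 and 3. At the rictor TSS itself the pooled list had a peak of 81.0 (rank 10574, q = 0.0481), with no summit within 100 bp in replicate 1 and ranks of 19672 and 11203 in replicates 2 and 3. No peak lay inside raptor (FBgn0029840, chromosome X, 6082634 to 6090201, - strand) or within 500 bp of its TSS. Its 2 pooled peaks, 793 and 1006 bp upstream with signals of 99.6 and 44.2, were 211 and 2 bp from a start of the metalloprotease gene Nep1.

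The genes of the Tsc complex, which turns Rheb off, had no optimal peak at their own starts. Tsc1 (FBgn0026317, chromosome 3R, 24130307 to 24134654, + strand) starts 52 bp from GatB, which is on the opposite strand. The pooled peaks there had signals of 75.0 (q = 0.0797) and 51.8 (q = 0.375), and each was missing from at least 1 replicate list. Another, of 93.5, lay 112 bp from the start of the exocyst gene Sec10. The window of gig (FBgn0005198, chromosome 3L, 20129181 to 20139010, + strand) held 1 pooled peak, which was optimal (20140547 to 20140942, signal 189.5, rank 2563). It ranked 3129, 2546 and 3244 in replicates 1, 2 and 3, the most even of the 14 in rank, but it lay 11564 bp from the gig TSS and 138 bp upstream of CG7328.

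Ordered by the strongest pooled peak within 500 bp of a TSS, the genes ran Max, S6k, Mnt, Rheb, Myc, Tor, rictor and Tsc1, with raptor and gig without a peak. Among the 7925 protein-coding genes with such a peak these were places 1018, 1048, 1885, 2254, 2601, 3171, 5328 and 5646. Replicate spread was wide beside these steps. The replicate rank of a gene was that of its strongest peak within 500 bp of any of its TSSs, whether or not it matched the pooled summit. For Mnt, the replicate 3 rank of 4974 was at another TSS. For rictor, the replicate 1 rank of 14073 was at an unmatched summit 192 bp downstream of the TSS. For Tsc1, replicate 1 matched a different pooled peak from replicates 2 and 3. Neighbours in the pooled order had overlapping replicate ranks, except Tor, which ranked above rictor in 3 of 3 replicates. Over all 28 pairs, 14 did not overlap. Each of the first 6 genes stood above rictor and above Tsc1 in 3 of 3 replicates, and Max also stood above Myc and Tor. The other 13 of the 15 pairs among the first 6 overlapped, as did rictor and Tsc1. The pooled list was built from the same 3 replicates, so some accord between them and its order is fixed in advance. The share of pairs without overlap among all genes was not counted, and no conclusion is drawn from these pair counts.

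**Figure D2:**
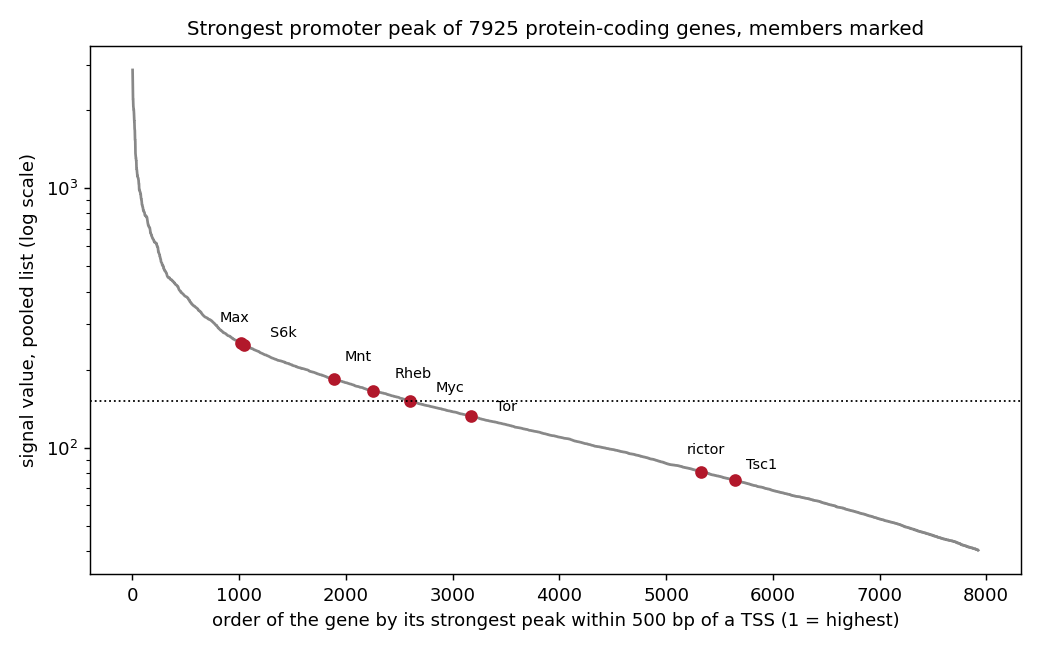
Protein-coding genes with a pooled peak within 500 bp of a TSS, ordered by the signal value of their strongest such peak (x axis, 1 is the highest), with that signal on a log y axis. Red points are the 8 growth genes that have one, and the dotted line is the lowest optimal signal (151.9): Max and S6k stand highest, Myc lies on the line, and Tor, rictor and Tsc1 lie below it.

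Recurrence in the replicates was uneven. Support was counted when a replicate had a summit within 100 bp among its first 3915 peaks. Of the 14 optimal peaks, 5 (35.7%) were supported by all 3 replicates, against 50% of all optimal peaks, and these were the promoter peaks of Max and S6k, the intronic peaks of Myc (rank 2634) and Mnt (rank 1902), and the peak next to gig. A further 5 had support from 2 replicates and 4 from 1. With replicates 1, 2 and 3 left out in turn, both others supported 6, 6 and 8 of the 14, against 58.6%, 58.5% and 63.9% of all optimal peaks. Replicate 1 supported 10 of the 14 (78.4% of all optimal peaks), replicate 2 supported 12 (77.5%), and replicate 3 supported 7 (73.4%). The optimal list was itself derived from these replicate lists, so recurrence in them is no independent test. In the full replicate lists, 13 of the 14 had a summit within 100 bp in all 3 replicates, against 88.6% of all optimal peaks, the exception being the Mnt promoter peak.

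At the level of genes, a peak within 500 bp of a TSS was among the first 3915 peaks for 3, 6 and 3 of the 10 genes in replicates 1, 2 and 3 (mean 4 ± 1.73, SD, n = 3). The shares of all protein-coding genes were 18.3%, 18.1% and 19.3%. Max and S6k were counted in each replicate, Mnt in replicates 1 and 2, Rheb in replicates 2 and 3, and Myc and Tor in replicate 2 only. With optimal peaks supported by all 3 replicates, the number of genes with a promoter peak was 2 instead of 5, while the share of all protein-coding genes was 9.67% instead of 18.7%. With replicates 1, 2 and 3 left out in turn, optimal peaks supported by both others gave 3, 2 and 3 genes. The shares of all genes were then 11.4%, 11.1% and 12.1%.

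**Figure D3:**
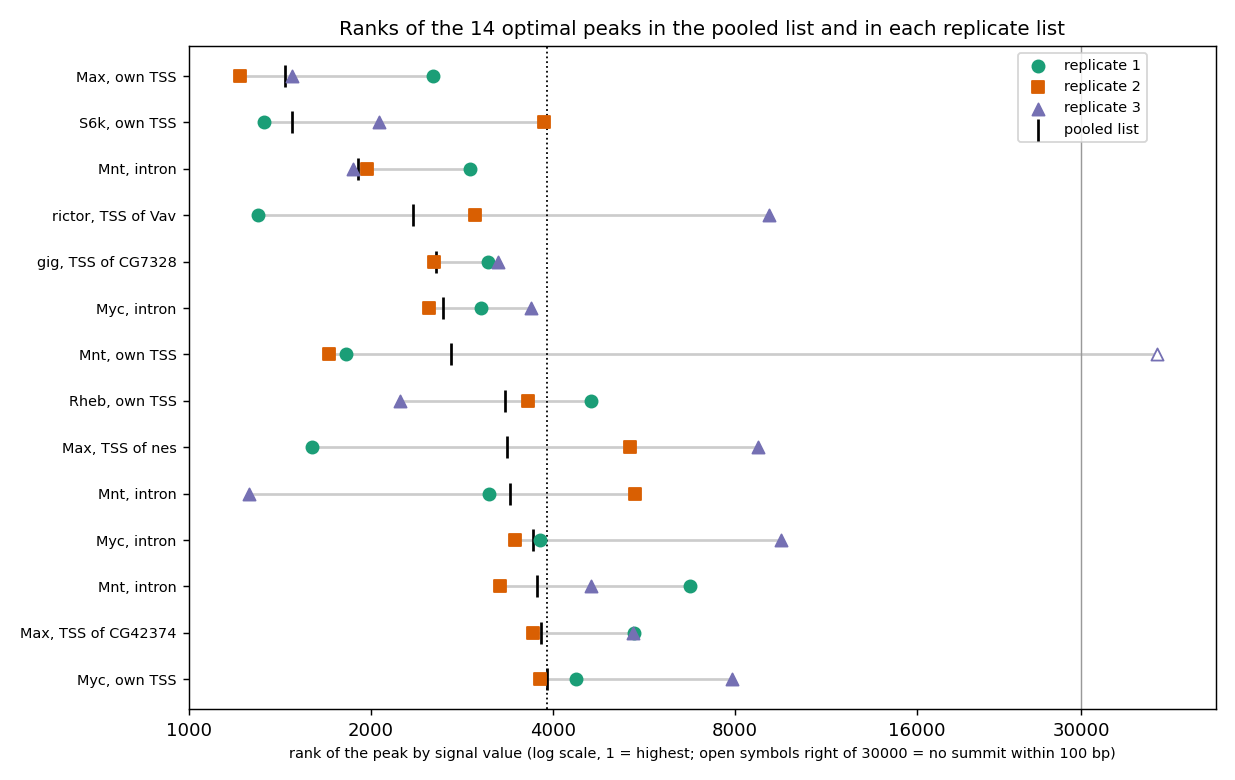
Rank by signal value (log x axis, 1 is the highest) of the 14 optimal peaks in replicate 1 (circles), replicate 2 (squares), replicate 3 (triangles) and the pooled list (black bars). Labels on the left name the gene window, then its own TSS where that lay within 500 bp, even if another start was nearer. The other peaks are labelled by the TSS of another gene within 500 bp or as intronic. The dotted line is rank 3915. Grey lines join the lowest and highest replicate rank, and the open triangle of the Mnt promoter peak marks that replicate 3 had no summit within 100 bp.

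The genes as a set differ from the average gene in length and in neighbours. Of the 10, 7 were among the longest 3486 protein-coding genes (4999 bp or more). Of the genes of that length, 49.7% had an optimal peak in the window and 29.2% had one within 500 bp of a TSS. Also 7 of 10, in part the same genes (Max, Mnt, Rheb, S6k, Tor, Tsc1 and rictor) had the TSS of another gene head to head within 1000 bp, which holds for 36.2% of all genes. Of these 7, 4 had an optimal promoter peak, against 30.3% of the 5052 genes with a head-to-head neighbour. For Mnt, that peak was at its middle TSS and not at the upstream TSS next to Parg. Of the other 3, Myc had one, against 12.1% of 8893 genes. The part of length and of neighbours in the counts was not tested.

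In the 201 bp windows printed above and those of the other optimal peaks, the CRE palindrome was found in 0 of 14. It is rare everywhere, at 0.587% of all optimal summits and 0.275% of windows of the same length centred on protein-coding TSSs. Its part TGACG was in 5 of 14 windows (35.7%), those of the nes peak, of the Rheb promoter, of the Mnt promoter, of a Mnt intron and of a Myc intron, against 16.2% of optimal summits and 19.2% of TSS windows. The DRE was in 0 of 14 (3.88% of optimal summits and 6.45% of TSSs). The M1BP site was in 1, at the Max promoter (2.22% and 4.42%). Such matches describe the letters in the window and show no factor at work.

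GAGA repeats and E-boxes were seen in the Myc and Mnt loci, which supply 3 and 4 of the 14 windows, and in windows of other genes. GAGAG was in 8 of 14 windows (28.1% of optimal summits and 25% of TSS windows), which are all 3 Myc peaks, 3 of the 4 Mnt peaks, the nes peak and the gig peak. The Myc promoter window held 3 matches, starting 14, 39 and 48 bp to the right of the summit. The E-box, the sequence that Myc, Max and Mnt themselves recognise, was in 3 of 14 windows (3.04% of optimal summits and 2.8% of TSS windows): the Mnt promoter, the Myc intronic peak of rank 3713 and the peak in intron 2 of Max. All 3 lay over 50 bp from the summit. Among the 6, 6 and 8 peaks supported by both remaining replicates when replicates 1, 2 and 3 were left out in turn, the E-box was in 0, 0 and 2, GAGAG in 3, 3 and 5 and TGACG in 1, 0 and 2. GC content of the 14 windows ran from 30.3% to 51.7% with a median of 40%, and the median of all optimal windows was 38.8%.

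The E-boxes at Myc and Mnt sat in the same longer sequence. The Mnt promoter window and the Myc intronic window share the run GCGCGTCACGTGCG, 14 bases long and the longest run shared by any of the 91 pairs of windows, in which TGACG (as its reverse complement CGTCA) overlaps the E-box. This run was looked for after the windows had been seen. At Mnt it spans 3688076 to 3688089 and starts 159 bp upstream of the middle TSS, and at Myc it spans 3378636 to 3378649 in intron 2. It occurred in 2 of the 3915 optimal windows, which are these 2, in 0 of 19252 TSS windows, and 4 times in all on chromosomes 2, 3, 4 and X. Its core CGTCACGTG, which joins TGACG and the E-box, was less rare, in 4 optimal windows (0.102%) and 8 TSS windows (0.0416%). The next longest shared runs, 11 bases, included TTCGCGAACGC at S6k and next to rictor, which occurred in 3 optimal windows and 30 times on these chromosomes.

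Other genes of the same pathways were counted from 4 lists, also chosen with earlier results of these data known. The rule was the same, an optimal summit within 500 bp of a TSS (18.7% of all protein-coding genes). Among subunits of the TOR complexes and genes that feed into them, 11 of 31 had one (35.5%). The strongest were at Sesn (signal 975.8, rank 85), a stress-responsive inhibitor of TORC1, Wdr24 (343.4, rank 806), a subunit of the GATOR2 complex, the insulin receptor gene InR (309.9, rank 1004) and chrb (297.2, rank 1072), a stress-induced TOR inhibitor. In replicates 1, 2 and 3 the Sesn peak ranked 68, 72 and 128. No peak of the 10 genes ranked above 1216 in any replicate.

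Among targets and effectors of TOR, 6 of 13 had an optimal promoter peak (46.2%). The RNA-binding protein gene larp stood highest (signal 1177.5, rank 48), followed by REPTOR (862.0, rank 111), a bZIP factor that TORC1 holds inactive, by Thor (426.8, rank 506), the fly 4E-BP that restrains translation, and by SREBP (241.4, rank 1584), a regulator of lipid synthesis. The replicate ranks were 70, 49 and 46 for larp, 165, 117 and 86 for REPTOR and 376, 482 and 1623 for Thor.

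Among partners and regulators of Myc, 8 of 15 had one (53.3%), led by sgg (806.7, rank 130), the fly glycogen synthase kinase 3, pont (425.1, rank 510), an ATPase found with Myc, bigmax (275.9, rank 1216), the partner of Mondo, and the histone demethylase gene Kdm5 (214.6, rank 2013). Of 15 genes of ribosome biogenesis, which Myc is known to drive, 3 had one (20%), near the share of all genes. These were Nopp140 (212.4, rank 2051), Fib (196.6, rank 2403), which encodes fibrillarin, and mod (161.9, rank 3505). The mod peak ranked 3568 in replicate 1 and 17175 in replicate 3, and replicate 2 held no matching summit. Read in single replicates, the lists gave 12.3 ± 1.53 of 31, 6.67 ± 1.53 of 13, 8.67 ± 0.577 of 15 and 3.67 ± 2.08 of 15 (SD, n = 3). With the 1957 optimal peaks of highest signal they gave 7, 4, 3 and 0, against 9.82% of all genes. With replicates 1, 2 and 3 left out in turn, the TOR inputs gave 6, 7 and 8 and the Myc partners 4, 4 and 6, beside the shares of all genes given above for these settings.

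**Figure D4:**
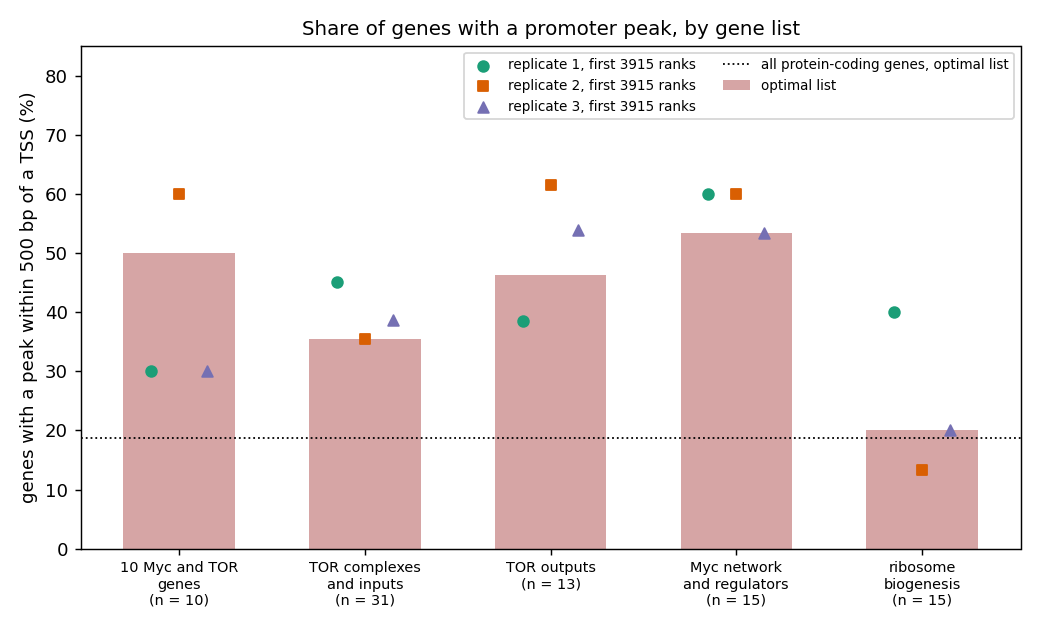
Percent of genes with a peak within 500 bp of a TSS (y axis) for the 10 growth genes and the 4 pathway lists. Bars are the optimal list, symbols are the first 3915 peaks of each replicate and the dotted line is the share of all protein-coding genes (18.7%). The ribosome biogenesis bar (20%) stands near the line and the replicates of the 10 genes spread from 3 to 6 genes.

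The optimal promoter peaks most like that of Max in replicate rank, by the smallest sum of absolute log10 rank differences over the 3 replicates, were those of RpL29 with Sgf29 (0.068), Coq3 with Pld3 (0.096) and row (0.121). The peak at RpL29 ranked 2357, 1315 and 1492 in replicates 1, 2 and 3, close to 2531, 1216 and 1482 at Max.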

How the data were processed

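The study measured CrebB-GFP ChIP-seq in 3 biological replicates of Drosophila melanogaster embryos, and 1 group was formed from the antibody label. A text file that accompanies the lists derives each replicate list from that replicate's reads and 1 control alignment, the pooled list from all 3 and the same control, and the optimal list from those 4 lists by an IDR threshold, on dm6. The aligner and caller are not given in the sources used here. Per peak, the deposited lists give a signal value without stated scale and a −log10 q-value.

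Summits were start plus deposited offset, with positions counted from 1. TSSs (19607) came from Ensembl release 115 and sequence from RefSeq Release 6, and all peak ends lay within the chromosomes. Of the replicate summits within 100 bp of a pooled summit, the one of best rank was matched to it. The counting was tested on simulated data. Python 3.11.15, numpy 2.4.6 and pandas 2.3.3 were used.

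All 10 genes were named, with any gene whose TSS lay within 500 bp of an optimal summit in their windows, up to 4 bound genes of highest signal per list, and the 3 peaks most like the strongest. The genes, lists and alternatives were chosen with earlier results of these data known. The replicates are separate biosamples per the labels.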

Additional observations from a re-analysis of the deposited data

How the results depend on the processing

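The alternatives changed the distances, the depth to which lists were read, the peak set and the replicates, and 54 of 93 kept a count within 1.5 times. A further 10, on the CRE and the DRE, had a count of 0 throughout and say nothing of stability. For optimal peaks, a setting without 1 replicate counted those that both others supported. The deposited optimal list itself still used all 3 replicates. The 7 genes with an optimal peak in the window were 4 with the gene body only and 3 with the 1957 optimal peaks of highest signal, and 5 to 6 without any 1 replicate. The 5 genes with an optimal promoter peak were 2 with those 1957 peaks and 2 with peaks supported by all 3 replicates, and 2 to 3 without any 1 replicate. The mean of 4 genes per replicate was 1.67 at 1957 ranks and 3 to 4.5 without any 1 replicate. The 5 peaks supported by all 3 replicates were 0 at 1957 ranks, 9 at 7830, 13 in the full lists and 10 among replicate peaks with a q-value under 0.05, and 6 to 8 without any 1 replicate. The 51 pooled peaks were 27 at a q-value under 0.05 and 23 to 32 without any 1 replicate, counting peaks that both others held.

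With the 1957 strongest peaks the TOR input, Myc network and ribosome biogenesis lists had 7, 3 and 0 genes, and with peaks supported by all 3 replicates the TOR input and Myc network lists had 6 and 4. Without any 1 replicate the 4 lists gave 6 to 8, 4 to 5, 4 to 6 and 2. Within 50 bp of the summit TGACG was in 2 windows, the M1BP site in 0, the E-box in 0 and GAGAG in 4, and within 250 bp the M1BP site was in 2. Without any 1 replicate TGACG was in 0 to 2 windows, the E-box in 0 to 2 and GAGAG in 3 to 5. Stricter settings use fewer peaks by construction, and otherwise the cause was not tested. No paired analysis was possible because there is 1 group.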

Other observations

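Below the optimal threshold, 8 of the 37 other pooled peaks in the 10 windows had a summit within 100 bp in all 3 full replicate lists. The share over all pooled peaks below the threshold was not counted, so this count is descriptive only. The strongest was in Mnt, 1183 bp upstream of its middle TSS, with a signal of 145.5 (rank 4198) and replicate ranks of 2219, 5537 and 9334. Another in Mnt, 999 bp downstream of the upstream TSS (135.8, rank 4697), ranked 8143, 5955 and 6104. The Tor promoter peak (132.3, rank 4898) came next.

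Of the 51 pooled peaks, 4 were matched in replicate 1 alone, 2 in replicate 2 alone and 4 in replicate 3 alone. The shares of all pooled peaks matched in 1 replicate alone were not counted either. The best replicate ranks among these were in replicate 3. A summit just past the 3' end of S6k (pooled signal 64.7, q = 0.169) ranked 4156 in replicate 3, with no summit within 100 bp in replicates 1 and 2. A summit in the 3' UTR of Myc (pooled signal 45.5, q = 0.512) ranked 6630 in replicate 3 and was likewise missing from the other lists. The remaining copies of GCGCGTCACGTGCG, outside Myc and Mnt, lay outside protein-coding genes, 8717 bp from trh and 60004 bp from CG12446, and no pooled peak covered them.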
